A study of Mus musculus with 20 samples.

Results

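The genes of the respiratory chain and the ATP synthase were followed in cultured mouse dorsal root ganglion neurons after electrical stimulation. They were taken by name alone, as every gene on the array whose name begins with Nduf, Uqcr, Cox4, Cox5, Cox6, Cox7, Cox8 or Atp5, or is Sdha, Sdhb, Sdhc or Sdhd. The rule found 90 gene names on 134 probes and 143 spots, out of 30222 names, 39429 probes and 43020 spots that are not controls. By name, 36 are subunits of complex I, 4 are its assembly factors, 4 belong to complex II, 8 to complex III, 20 to complex IV (with Ndufa4 and Ndufa4l2 counted there) and 15 to complex V. The other 3 names, Cox4nb, Atp5s and Atp5sl, share the opening letters without being subunits.

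Mitochondria make most of the ATP of a neuron. Complexes I and II pass electrons from NADH and succinate to ubiquinone, complex III hands them to cytochrome c, and complex IV passes them to oxygen. The protons pumped by complexes I, III and IV drive ATP synthesis by complex V. The subunits studied here are encoded in the nucleus, and neurons that fire action potentials spend much of their ATP on restoring ion gradients.

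The neurons came from 13.5-day-old embryos of NIH Swiss mice and were grown with fluorodeoxyuridine, which limits dividing cells. Nerve growth factor was removed before stimulation. Unstimulated neurons were compared with neurons given bursts of 18 action potentials every 1 min (18/1) or of 90 every 5 min (90/5), for 2 hr or 5 hr, through pulses of 6 V and 0.2 ms. Each of the 5 conditions had 4 samples on 2 two-colour arrays, both colours of an array holding the same condition, and each condition came from 5 pooled cultures. Pooling leaves out the spread between single animals. Slide 1 held unstimulated and 18/1 2 hr, slide 2 held 18/1 5 hr and 90/5 2 hr, and slide 3 held 90/5 5 hr, so slide and condition cannot be told apart except within slides 1 and 2. A culture note in the labels names spinal cords as the source. Of 15 sensory neuron markers, 14 were well above background in all 20 samples, against 0 of 5 spinal cord neuron markers, 0 of 7 muscle markers and 0 of 4 central glia markers. All 16 of the latter were above it in some samples, from 1 of the 20 (Actc1 of muscle) to 19 (Acta1 of muscle and Aqp4 of glia), with Slc32a1 of spinal cord neurons at 17 and Gfap of glia at 16. Markers of Schwann and satellite cells (6 of 8), fibroblasts (7 of 7) and macrophages (3 of 4) were also well above background throughout. In such mixed cultures a smaller share of one cell type and less RNA per cell cannot be told apart.

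What the nuclear genes share in sequence was read from their promoters, because nuclear respiratory factors are known to act through short motifs near the start sites of these genes. RefSeq promoter windows of the GRCm38.p6 build, from 250 bases before to 50 bases after the start, were matched for 74 of the 90 genes (3 of them by a synonym), which gave 80 windows. The motifs were searched on both strands as exact letters. The NRF1 motif GCGCATGC was in 13.8% of these windows and in 2.71% of all 32851 windows of that length. The GABPA motif CCGGAAG was in 21.2% against 8.86%, the YY1 motif AAGATGGC in 15% against 2.75%, and the CREB motif TGACGTCA in 5% against 1.79%. At least 1 of the NRF1, GABPA and YY1 motifs was in 34 windows, which is 42.5% against 13.3% of all windows. A match is a description of letters, not a shown binding site. Stretches upstream of the start are printed for genes described below, with the motif in capitals: Ndufa11 (chr17:56717642-56717761, plus strand) with overlapping NRF1 motifs that share bases, Sdhb (chr4:140961151-140961270, plus strand) with NRF1 on the other strand, and Ndufaf1 (chr2:119662835-119662954, minus strand) with GABPA.
Ndufa11: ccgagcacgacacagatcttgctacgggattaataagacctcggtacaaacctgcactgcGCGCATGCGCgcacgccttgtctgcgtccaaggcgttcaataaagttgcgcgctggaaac
Sdhb: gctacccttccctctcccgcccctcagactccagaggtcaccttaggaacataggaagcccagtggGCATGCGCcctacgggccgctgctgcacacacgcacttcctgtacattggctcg
Ndufaf1: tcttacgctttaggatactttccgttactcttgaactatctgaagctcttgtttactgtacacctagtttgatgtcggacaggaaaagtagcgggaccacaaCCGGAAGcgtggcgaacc

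These transcripts gave some of the brightest spots on the arrays, and on slide 2 many of them reached the top of the scanner's range. A spot at that top is marked as saturated, and its signal is then only a lower bound. Of the 143 spots, 60.1% to 74.1% were marked in the 18/1 5 hr samples and 23.1% to 72% in the 90/5 2 hr samples. Over all spots that are not controls the share there was at most 6.51%. On slide 1 the Cy3 samples had 0 marked spots and the Cy5 samples 12 to 20. The Cy3 mark on slide 1 is set at an intensity of 65527 whereas the spots stop at 65526, so between 1 and 6 member spots at that top went unmarked in each of those samples. On slide 3 the mark is set at 777969 for Cy3 and 778698 for Cy5, and the brightest member spot there read 452723. The array prints one Uqcrc2 probe 10 times, and those spots were averaged. The raw signal of a member in 18/1 5 hr or 90/5 2 hr is therefore often only a lower bound. In the unstimulated and 18/1 2 hr samples this holds less often, and in 90/5 5 hr no member spot was marked. The scaling between arrays can raise a saturated signal, so normalized levels and folds from such spots are not strict bounds.

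**Figure D1:**
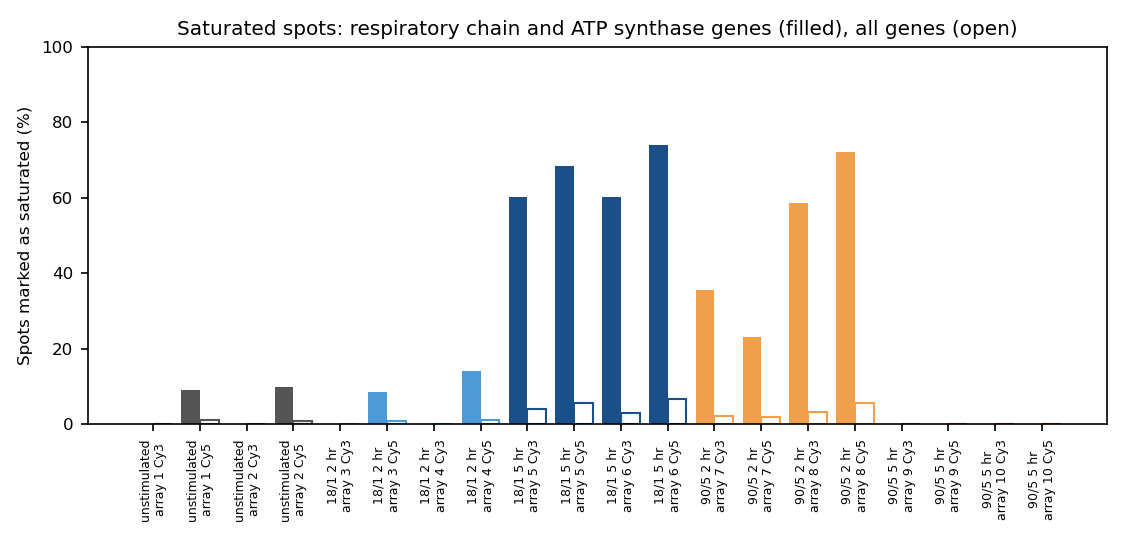
Share of spots marked as saturated in each of the 20 samples, in percent, for the 143 spots of respiratory chain and ATP synthase genes (filled bars) and for all spots that are not controls (open bars), coloured by condition. The 8 samples of 18/1 5 hr and 90/5 2 hr reach 23.1% to 74.1% for these genes, and the 4 samples of 90/5 5 hr are at 0.

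All 90 names could be followed, and 77 passed the filter in all 20 samples and were tested among 10355 genes. They comprise 34 complex I subunits, 2 complex I assembly factors, 3 genes of complex II, 7 of complex III, 14 of complex IV, 15 of complex V and 2 of the other names. Levels are given as normalized log2 signal and differences as log2 fold change, from limma with Benjamini-Hochberg adjustment over all genes of a comparison. A gene was called when its adjusted p was below 0.05.

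After 2 hr of 18/1 stimulation, 0 of the 77 genes were called, where 0.0193% of all genes tested were (2 genes). The count at an unadjusted p below 0.05 was also 0. The median log2 fold change of the members was 0.08, against 0.00 over all genes, and the values ran from -0.36 for Uqcrc1, a core protein of complex III, to 0.56 for Ndufa4l2, a relative of the complex IV protein Ndufa4. For 72 of the 77 genes the 95% interval of the log2 fold change lay within 1 of no difference, where 77.4% of all genes tested did. This comparison lies within slide 1. It sets a limit on the size of a change and does not show that levels were equal. For 17 of the 77 genes 1 to 3 samples of a condition were saturated, and there the top of the scale limits what the interval can show.

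After 5 hr of 90/5 stimulation, 0 of 77 were called again, with 0.0676% of all genes called (7 genes) and 1 member, Sdhc, at an unadjusted p below 0.05. The median was 0.05 and the range -0.35 (Ndufaf1) to 0.48 (Sdhc). All 77 values were within 0.5 of 0 on the log2 scale, and 75 intervals lay within 1, where 91% and 72.2% of all genes did. For 13 of the 77 genes 1 to 3 unstimulated samples were saturated, which limits what those intervals can show. Atp5b, the catalytic subunit of ATP synthase, read 15.89, 16.49, 15.95 and 16.44 in the 4 samples of 90/5 5 hr and 16.27, 16.21, 16.30 and 16.40 in unstimulated neurons. Atp5b differed by -0.10 ± 0.30 (log2 fold change ± SE), with 2 of the 4 unstimulated samples and 0 of the 90/5 5 hr samples saturated, so the unstimulated level and the overlap of the groups are limited by the top of the scale. Slide 2 adds to the spread that limma shares among conditions, so the fit was repeated without it. The intervals then narrowed (median SE 0.13), 62 of 77 lay within 0.5 at 18/1 2 hr and 60 of 77 at 90/5 5 hr, and 0 and 1 members were called, the latter being Sdhc among 257 genes (2.48% of all). With slide 2 also out of the normalization and the spot filter, an alternative added after seeing the data, 87 members were measured, 0 were called in either comparison, and all 87 intervals lay within 1. Of all 14902 genes in that fit 0.0403% were called at 18/1 2 hr and 3.07% at 90/5 5 hr, and 9 and 8 members had an unadjusted p below 0.05.

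After 5 hr of 18/1 stimulation, 18 of 77 genes were called (23.4%), 10 higher and 8 lower, where 44.4% of all genes tested were called. In all genes 15% were called higher and 29.5% lower. The members' count was 6 without array 2 (unstimulated), where 26.1% of all genes were called, 24 without array 6 (18/1 5 hr), where 54.7% were, and 11 without the fourth 90/5 5 hr replicate, which enters only through the shared spread, where 37.8% were. The median of the members was 0.10 and that of all genes -0.23. With each sample centred on its median only, both medians turned or moved down, to -1.07 for the members and -0.81 for all genes, and 46 members were called (59.7%), where 52.6% of all genes were. The direction of the set as a whole at 18/1 5 hr thus depended on the scaling. Summed fibroblast markers, whose 7 genes were all above background, were at 16.05 to 16.25 on the log2 scale in the 18/1 5 hr samples and at 14.14 to 15.49 in unstimulated neurons, while summed sensory neuron markers were at 18.93 to 19.53 and 19.28 to 19.37, and no marker of either list was absent. Summed markers of spinal cord neurons were at 9.71 to 10.79 against 9.33 to 9.46, and of central glia at 9.64 to 11.32 against 9.03 to 9.37, with no gene of either list well above background in every sample. The part of these cell types in the differences was not tested.

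**Figure D2:**
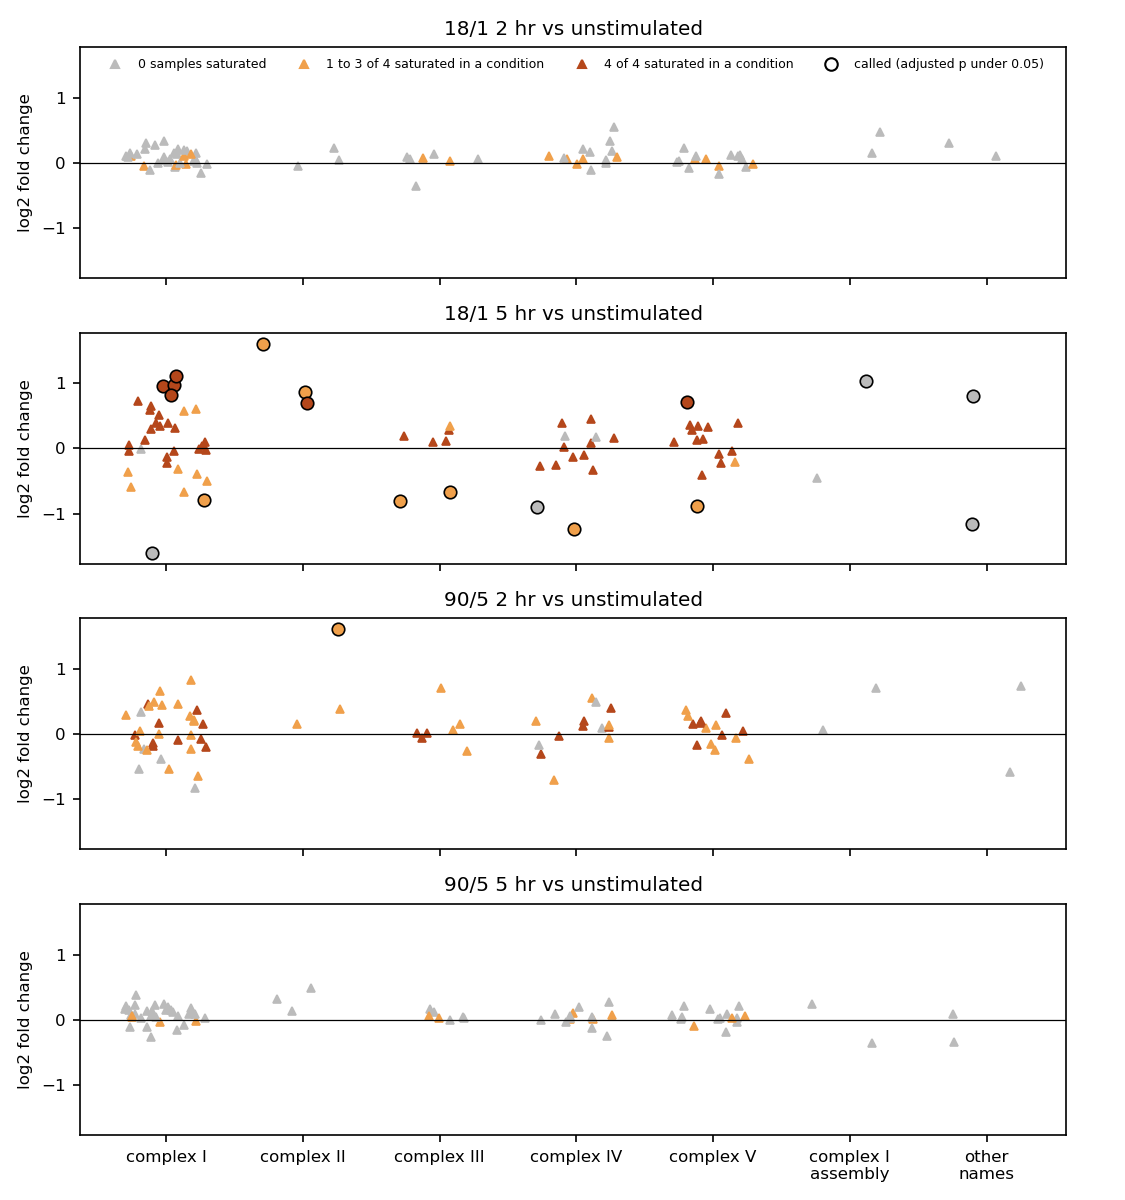
Log2 fold change against unstimulated neurons of the 77 genes tested, in 4 panels by condition and grouped by complex; circles with a black edge are called genes, triangles are not called, and colour gives how many of the 4 samples of a condition were saturated (the higher of the pair compared). Genes lie close to 0 at 18/1 2 hr and 90/5 5 hr, and 18 are called at 18/1 5 hr and 1 at 90/5 2 hr.

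Complex II oxidises succinate and is also an enzyme of the citric acid cycle. All 3 of its tested genes were called higher at 18/1 5 hr, with Sdhb turning to -0.94 under median centring and Sdhc turning with its other probe (below). With the trend on the G and C content of the probes removed, Sdhc alone stayed called, with Sdha at 0.63 (adjusted p = 0.0842) and Sdhb at 0.40 (adjusted p = 0.157). Over 45 alternatives Sdha lost its call in 10, and Sdhb lost it in 9 besides turning once. Sdhc, a membrane anchor of the complex, read 15.17, 14.97, 15.25 and 14.77 at 18/1 5 hr against 13.55, 13.30, 13.55 and 13.37 in unstimulated neurons, which did not overlap. Its log2 fold change was 1.60 ± 0.23 (SE, adjusted p = 2.81e-05), with 3 of the 4 stimulated samples saturated, so that the raw signal of this probe there is a lower bound. Sdha, the flavoprotein that binds succinate, read 15.55, 15.33, 14.89 and 14.60 against 14.23, 14.03, 14.27 and 14.36, again without overlap, at 0.87 ± 0.31 (adjusted p = 0.0264), also with 3 of 4 saturated. Sdhb, the iron-sulphur subunit, was saturated in all 4 samples of 18/1 5 hr. On this probe and scaling it was 1.62-fold higher (adjusted p = 0.0222), a size limited by saturation, while its other probe gave a log2 fold change of 0.30. Sdhd, the other anchor, did not pass the filter in every sample. With the filter met in 1 condition it stood at 0.09 ± 0.29 (adjusted p = 0.834).

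Complex I is the entry point for electrons from NADH. Of its 34 tested subunits 4 were called higher and 2 lower at 18/1 5 hr. The 4 higher ones were all saturated in all 4 stimulated samples, so their sizes are limited by the top of the scale. The raw signals there are lower bounds, but the scaling between arrays can raise them, so the folds are not strict lower bounds. As scaled here, the accessory subunit Ndufs4 rose 2.15-fold (adjusted p = 0.00271), Ndufc1 1.95-fold (0.0171) and the core subunit Ndufs3 1.76-fold (0.0198). Under median centring the log2 fold change was 0.18 for Ndufs4, whose call was lost in 4 of 45 alternatives, and -0.11 for Ndufc1, whose call was lost in 9 and whose sign turned in 1. Ndufs4 read 15.45, 15.24, 16.44 and 15.76 in the stimulated samples, all above the 14.49 to 14.77 of unstimulated neurons. Ndufa11, an accessory subunit of the membrane arm, fell the most of the 77 genes as each was read from its brightest probe, while some dimmer probes fell further (below). It read 11.42, 10.80, 11.97 and 11.35 at 18/1 5 hr against 12.86, 12.86, 13.15 and 13.12, with no saturated sample and no overlap. Its log2 fold change was -1.61 ± 0.35 (adjusted p = 0.00105), and it stayed called and negative in all 46 alternatives, from -2.20 to -1.15. The other subunit called lower, Ndufb7, changed by -0.79 ± 0.26 (adjusted p = 0.019), a size that may be too large because 2 of the 4 stimulated samples were saturated.
Other core subunits gave no call. Ndufs1, the largest subunit, was at -0.32 ± 0.30, Ndufv1, which binds NADH, at 0.13 ± 0.25, and Ndufab1, the acyl carrier protein, at -0.00 ± 0.30. In 1 of 45 alternatives Ndufs1 gained a call, with values down to -0.84, and in 1 Ndufv1 turned to -1.48 with a call. The assembly factor Ndufaf1, known to act early in building complex I, was unsaturated and rose by 1.04 ± 0.26 (adjusted p = 0.00303). It read 12.69, 12.46, 12.35 and 11.67 at 18/1 5 hr, just above the 11.07 to 11.60 of unstimulated neurons.

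In complex III, 2 of 7 genes were called lower at 18/1 5 hr and 0 higher. Uqcrc1 changed by -0.81 ± 0.30 (adjusted p = 0.0321), with 2 of the 4 stimulated samples saturated, a call lost in 13 of 45 alternatives, removal of the G and C trend among them (-0.44). Uqcrq was at -0.67 ± 0.26 (adjusted p = 0.0383) on a probe with 3 of the 4 saturated, but its other probe, 100 bases away and saturated in all 4, was at 0.42 ± 0.27 (adjusted p = 0.217), so the direction of Uqcrq depended on the probe. The core protein Uqcrc2, at 0.28 ± 0.25, and Uqcrfs1, the Rieske iron-sulphur protein, at 0.34 ± 0.31, were not called. In complex IV, 2 of 14 were called, both lower. Cox4i1, the common isoform of subunit 4, read 14.73, 14.30, 15.67 and 14.99 at 18/1 5 hr and 16.19, 16.11, 16.12 and 16.22 in unstimulated neurons. It changed by -1.24 ± 0.27 (adjusted p = 0.00105), but only by -0.33 on the processed signals of the scanner software, where it was not called. The groups did not overlap, and 2 samples of each were saturated. Cox6b2, known as the testis isoform of subunit 6b, was unsaturated and changed by -0.90 ± 0.33 (adjusted p = 0.0341), with overlap because 1 unstimulated sample read 10.34. Its call was lost in 15 of 46 alternatives, and with the G and C trend removed it was at -0.38. Cox5a (0.08 ± 0.27), Cox6a1 (-0.33 ± 0.31), Cox7a2 (0.45 ± 0.30), Cox7a2l (0.16 ± 0.25), Cox8a (-0.11 ± 0.30), Ndufa4 (0.39 ± 0.31) and Ndufa4l2 (0.19 ± 0.29) gave no call. All of these but Ndufa4l2 were saturated in all 4 stimulated samples. Under median centring Cox5a turned to -1.92, Cox7a2l to -1.46 and Ndufa4 to -0.93, each with a call. Cox6a1, Cox7a2 and Cox8a each gained a call in 1 of 45 alternatives. Their values reached -1.95 for Cox6a1 and -1.96 for Cox8a, and ran from -0.68 to 0.89 for Cox7a2.

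In complex V, 1 of 15 genes was called higher and 1 lower at 18/1 5 hr. Atp5l, a subunit of the membrane part, was 1.63-fold higher (adjusted p = 0.0285) on its brightest probe, which was saturated in all 4 stimulated samples. The arrays place that probe on chromosome X. Its other 5 probes, placed on chromosome 9 and likewise saturated in all 4 stimulated samples, ran from -0.04 to 1.29 in log2 fold change, so the size for Atp5l depended on the probe. Atp5d, the delta subunit of the catalytic part, changed by -0.88 ± 0.25 (adjusted p = 0.00715), a size that may be too large because 2 of the 4 stimulated samples were saturated. The catalytic core was not called, with Atp5a1 at 0.35 ± 0.30, Atp5b at -0.41 ± 0.30 and Atp5c1 at -0.22 ± 0.25. Over 45 alternatives Atp5b and Atp5c1 each gained a call in 1, with values down to -1.96 and -1.54. The genes of the proton-carrying c ring, Atp5g1, Atp5g2 and Atp5g3, were at 0.10 ± 0.25, -0.09 ± 0.31 and -0.04 ± 0.31. Over 45 alternatives Atp5g3 gained a call in 1, with values down to -1.60, and Atp5g1 turned to -1.93 with a call. Atp5g2 ran from -1.48 to 1.02, with a call gained in 1 and a turn in 1. A second Atp5g2 probe, 60 bases away, was at 0.90 ± 0.30 (adjusted p = 0.0184 among all probes), so the probes of that gene differed in their call. All 6 genes were saturated in all 4 samples of 18/1 5 hr, so a rise above the top of the scale could not be seen in them. The other names also split, with Atp5sl at 0.80 ± 0.24 (adjusted p = 0.0113) and Atp5s at -1.16 ± 0.44 (adjusted p = 0.0366), neither of them saturated. Atp5sl lost its call in 8 of 46 alternatives, removal of the G and C trend among them, and Atp5s in 14, with its value down to -0.41.

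**Figure D3:**
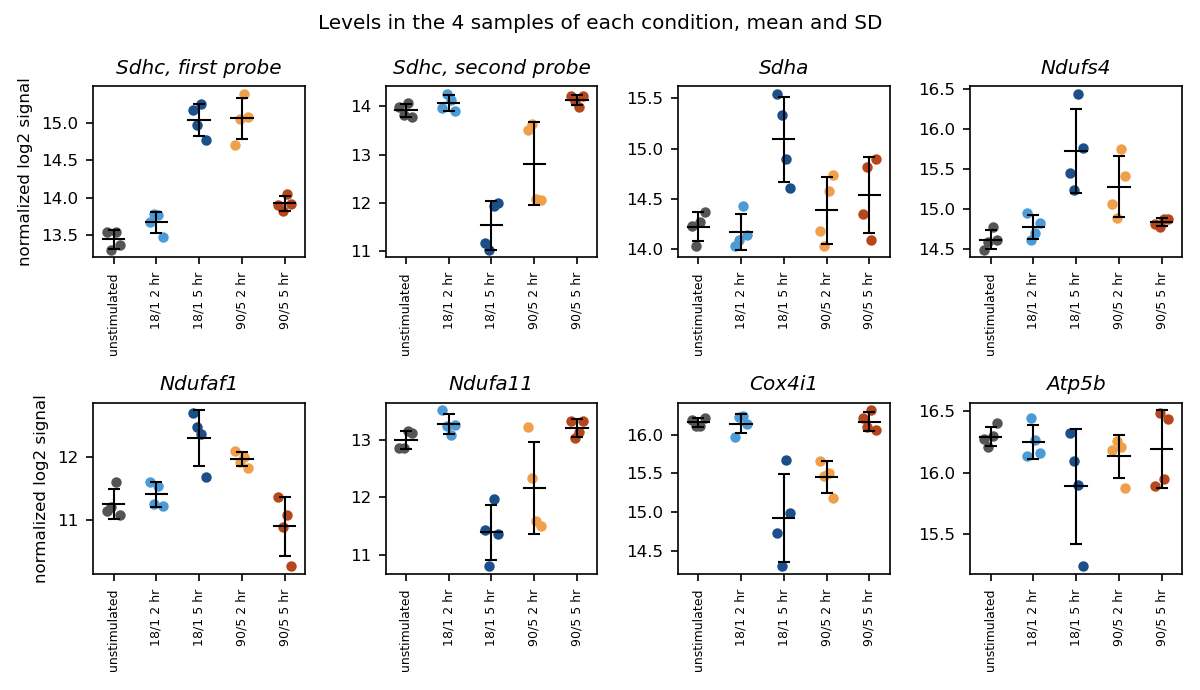
Normalized log2 signal of 8 probes in the 4 samples of each condition (points), with the mean and SD (lines); both Sdhc probes are shown. The first Sdhc probe is above the unstimulated range in all samples of 18/1 5 hr and 90/5 2 hr and the second is below it, while Ndufa11 and Cox4i1 are lowest at 18/1 5 hr.

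At 18/1 5 hr 51 of the 77 genes were saturated in all 4 samples of a condition, and the 6 called among them were all higher. Of 17 genes saturated in some samples 7 were called, and of 9 unsaturated genes 5 were called, 2 higher and 3 lower. When every probe with a saturated spot was left out and each gene was read from its brightest remaining probe, 16 members were left among 8475 genes. Of these 16, 11 were called in the longer 18/1 stimulation, 2 of them higher and 9 lower, where 45.8% of all genes on such probes were called, 11.4% higher and 34.4% lower. Their median was -0.99, against -0.39 for all genes. Because saturation lay mostly in 18/1 5 hr and 90/5 2 hr, leaving out saturated probes can remove genes that were higher there, so the direction of the 16 follows in part from the choice of probes and is a description. At 18/1 2 hr, 90/5 2 hr and 90/5 5 hr 0 of the 16 were called, where 4.93% of all genes on such probes were called at 90/5 2 hr. In 90/5 5 hr against 18/1 5 hr 11 of the 16 were called, 9 of them higher in 90/5, beside 47.1% of all genes on such probes. The genes that turned up lower on these probes include Ndufa3 (-2.72 ± 0.47), Ndufv3 (-2.30 ± 0.39), Uqcr10 (-1.81 ± 0.47) and Cox7c (-1.32 ± 0.35).

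For 7 genes a probe with saturated spots could be set beside a probe of the same gene with none: Cox7c, Ndufa3, Ndufa5, Ndufb5, Ndufv3, Sdhc and Uqcr10. The pairs were chosen by which probe saturated, and the saturated spots lay mostly in 18/1 5 hr and 90/5 2 hr, the conditions compared, so which probe of a pair is higher there follows in part from the choice and is given as a description. At 18/1 5 hr the saturated probe gave the higher log2 fold change by a median of 1.91 and by more than 1 in all 7. At 90/5 5 hr the difference was at most 0.35, and at 18/1 2 hr at most 0.44. Sdhc was the widest, at 1.60 on the first probe and -2.38 on the second, whose centres lie 191 bases apart. The second Sdhc probe read 11.18, 11.03, 11.93 and 12.00 at 18/1 5 hr against 13.98, 13.82, 14.08 and 13.78 in unstimulated neurons, opposite in direction to the first probe and without overlap. A saturated spot bounds the raw signal of the first probe from below, and the second probe had no saturated spot in any sample. The Ndufv3 probes gave 0.10 and -2.30, and the Ndufa3 probes -0.50 and -2.72.

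The opening 30 bases of the 60-base probes of Ndufv3 and Ndufa3 are printed because the result of each gene turned on which probe was read. Positions are on the mm9 build as the arrays give them. The Ndufv3 probes (chr17:31668209-31668268 and chr17:31665148-31665207, plus strand) hold 50% and 55% G and C over their full length, and the Ndufa3 probes (chr7:3571695-3571754 and chr7:3571590-3571649, plus strand) 46.7% and 55%. The exon or UTR in which each probe lies was not determined here.
Ndufv3, first probe: ggtagaccccgatgttggttcccatgaatc
Ndufv3, second probe: gtgccagaaggaggctcccaggtccaggag
Ndufa3, first probe: atgcctctgctgatggaagaggccccttcc
Ndufa3, second probe: ttctgttttgcagtgcctgtgagagatgac

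**Figure D4:**
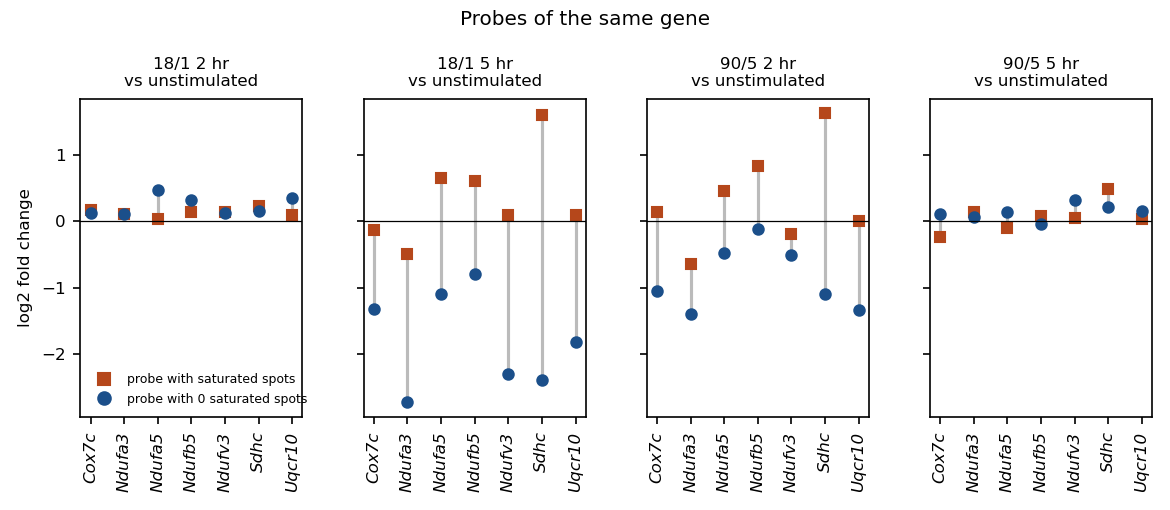
Log2 fold change against unstimulated neurons, in 4 panels by condition, for the 7 genes with a probe that had saturated spots (squares) and a probe that had none (circles); a grey line joins the probes of a gene. The pairs were chosen by which probe saturated, so the order of squares and circles is a description; they differ by more than 1 for all 7 genes at 18/1 5 hr, and the probes lie within 0.35 of each other at 90/5 5 hr.

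Probes of other genes, and probes with no saturated spot, disagreed as well. Over the 25 members with at least 2 usable probes the median absolute difference was 0.05 for 18/1 2 hr, 0.55 for 18/1 5 hr, 0.26 for 90/5 2 hr and 0.11 for 90/5 5 hr. Over 1024 genes of the whole array whose probes were both unsaturated the medians were 0.14, 0.80, 0.44 and 0.22 in that order. In the 7 pairs above, the unsaturated probe was richer in G and C every time. Across the 77 members, whose points share the same libraries, the log2 fold change at 18/1 5 hr fell with the G and C content of the probe (Pearson r = -0.48, Spearman rho = -0.44, n = 77). Across all 10355 genes r was -0.43. For the members r was -0.55 in 90/5 2 hr, 0.23 in 90/5 5 hr, and -0.08 in the shorter 18/1 comparison. At 18/1 5 hr 9 members were called higher and 1 lower among the 29 whose probes hold under 40% G and C, while 0 were called higher and 6 lower among the 15 at 50% or more. Over all genes the counts were 1123 higher and 444 lower of 3992 under 40%, and 59 higher and 1030 lower of 1698 at 50% or more, a split in the same direction. With the trend on G and C removed from each sample, 15 members were called at 18/1 5 hr, 11 higher and 4 lower, where 38.5% of all genes were called. Of the 18 calls made before, 8 were lost, namely Sdha, Sdhb, Ndufc1, Ndufb7, Uqcrc1, Cox6b2, Atp5d and Atp5sl, and 5 calls were new. In that fit the 7 pairs still differed by a median of 1.55. The part of probe composition in the remaining differences was not tested.

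**Figure D5:**
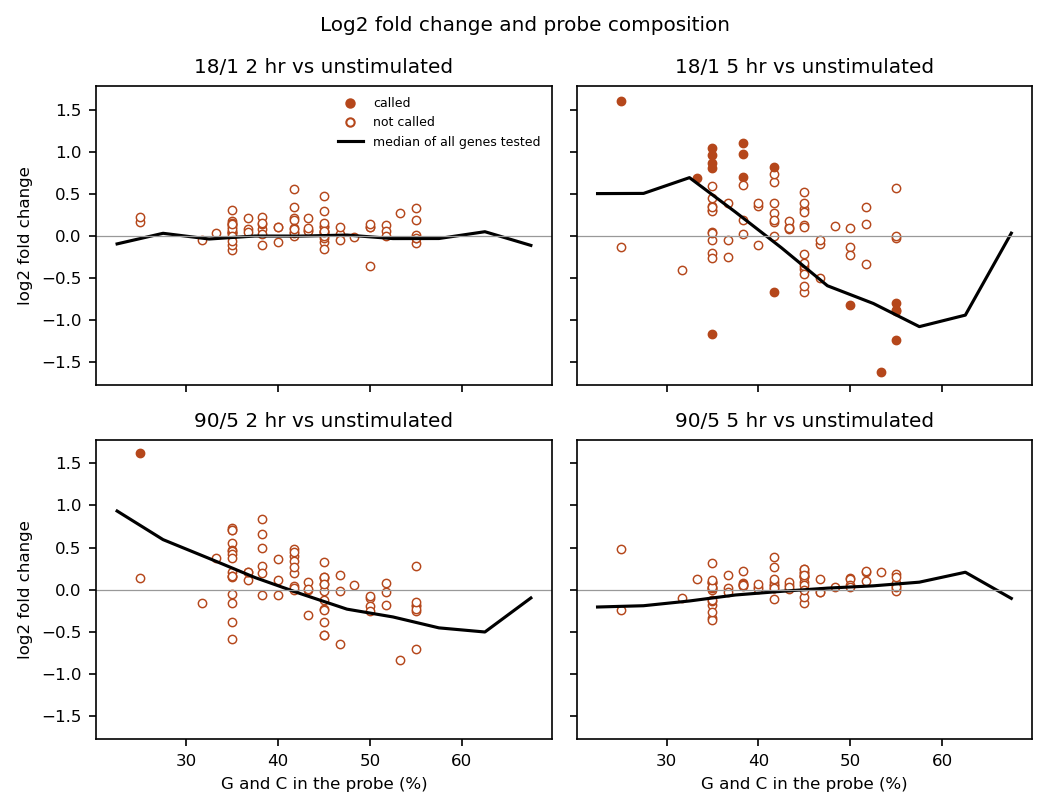
Log2 fold change against unstimulated neurons (vertical) and G and C content of the probe in percent (horizontal) for the 77 members, filled where called, with the median of all genes tested in steps of 5 percent (line). The points and the line slope down at 18/1 5 hr (r = -0.48 over the members) and 90/5 2 hr (r = -0.55) and are nearly level at 18/1 2 hr (r = -0.08).

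After 2 hr of 90/5 stimulation 1 of 77 genes was called, where 6.97% of all genes were, and 9 had an unadjusted p below 0.05. The count was 8 without array 7, where 27% of all genes were called. The 1 gene was Sdhc on its first probe, which read 14.71, 15.06, 15.39 and 15.08, all above unstimulated neurons (1.62 ± 0.23, adjusted p = 0.000157, 2 samples saturated). Its second probe again went the other way, at -1.10 (adjusted p = 0.069). On that probe the samples of array 7 read 13.50 and 13.62 and those of array 8 read 12.08 and 12.06, so the arrays of this condition did not overlap with each other. Ndufa11 showed the same split, at 13.23 and 12.33 on array 7 and 11.59 and 11.51 on array 8, with a log2 fold change of -0.83 ± 0.35 (adjusted p = 0.156). The median over the members was 0.09, against -0.08 for all genes. Against 18/1 2 hr, 1 of 77 genes was called, Sdhc once more on its first probe (1.39 ± 0.23, adjusted p = 0.000901), where 4.96% of all genes were called. On its second probe Sdhc went the other way here too, at -1.25. No member was called without array 4 (18/1 2 hr), and the count rose without array 7, as the last section gives.

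The patterns were also set against each other at 5 hr, although they lie on different slides. In 90/5 5 hr against 18/1 5 hr 19 of 77 genes were called, 10 higher and 9 lower, where 45.4% of all genes were called (29.6% higher, 15.8% lower). The count was 9 without array 10 (90/5 5 hr), where 31.2% of all genes were called, and 12 without the fourth 90/5 5 hr replicate alone, where 37.7% were. With each sample centred on its median only, 59 members were called, all higher in 90/5, where 57.5% of all genes were called, and their median moved from -0.05 to 1.30, so the split of directions depended on the scaling. The comparison shares its 18/1 5 hr samples with the one against unstimulated neurons. Ndufa11 was higher in 90/5 by 1.82 ± 0.35 (adjusted p = 0.000336) and Cox4i1 by 1.25 ± 0.27 (adjusted p = 0.000889), though the Cox4i1 value was -0.01 on the processed signals of the scanner software. Cox6b2 was higher by 1.08 ± 0.33 (adjusted p = 0.0119). Atp5s was also called higher, at 1.25 ± 0.44 (adjusted p = 0.0244), with samples of the 2 conditions overlapping. Ndufaf1 was 2.63-fold lower (adjusted p = 0.00025) and Atp5sl was at -1.14 ± 0.24 (adjusted p = 0.000833). Ndufc1 was 2.34-fold lower under this scaling (adjusted p = 0.0035), with all 4 samples of 18/1 5 hr saturated. Over 45 alternatives the Ndufc1 log2 fold change ran from -1.65 to -0.01, the latter under median centring, and its call was lost in 4. Within slide 2, 90/5 2 hr against 18/1 5 hr gave 0 calls among the 77 by limma, where 12.9% of all genes were called, and 11 members had an unadjusted p below 0.05. Pattern and time both differ in that comparison. Of the 77 genes 52 were saturated in all 4 samples of a condition and 9 in none, which limits the differences that could be seen. Without the array block 16 were called, beside 33% of all genes, and by the methods' t-test 6, beside 16.6%. Under median centring 62 were called, all higher at 90/5 2 hr, beside 46.9% of all genes, and the members' median was 1.22 instead of 0.02, so the count depended on the scaling.

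Between the times, 18 of 77 genes were called in 18/1 5 hr against 18/1 2 hr, 9 higher and 9 lower, where 44% of all genes were (15.3% higher, 28.7% lower). The count was 5 without array 3 (18/1 2 hr), where 25.3% of all genes were called. Under median centring it was 56, 1 higher and 55 lower, where 52.9% of all genes were called, and the members' median moved from 0.01 to -1.39. Among the genes that rose were Sdhc on its first probe (1.37 ± 0.23, adjusted p = 0.00013) and Ndufs4 (1.93-fold higher, adjusted p = 0.00777). Ndufs4 was saturated in all 4 samples of 18/1 5 hr, and its log2 fold change was -0.10 under median centring. On its second probe Sdhc was lower instead, at -2.53. With each gene read from its brightest probe, the widest falls were those of Ndufa11 (-1.89 ± 0.35, adjusted p = 0.000291), Atp5s (-1.47 ± 0.44, adjusted p = 0.0104) and Cox6b2 (-1.23 ± 0.33, adjusted p = 0.00554). On probes without saturated spots the values reached -2.84. In 90/5 5 hr against 90/5 2 hr 4 of 77 were called, 1 higher and 3 lower, where 8.96% of all genes were (4.69% higher, 4.27% lower), and under median centring 10 were, beside 8.33% of all genes. The count of 4 fell without array 10 (90/5 5 hr) and rose without array 7 (90/5 2 hr), as the last section gives. Ndufa9, a complex I subunit at the junction of its arms, was higher at 0.79 ± 0.24 (adjusted p = 0.04), a call lost in 24 of 45 alternatives, removal of the G and C trend among them. Sdhc on its first probe (-1.14 ± 0.23, adjusted p = 0.00308), Atp5sl (-1.08 ± 0.24, adjusted p = 0.00721) and Ndufaf1 (-1.06 ± 0.26, adjusted p = 0.0126) were lower. The second Sdhc probe went the other way, at 1.315. The pattern effect differed between 2 hr and 5 hr for 20 of 77 genes, 10 in each direction, where 44.8% of all genes were called in that test (28.2% positive, 16.6% negative). Under median centring 46 were called, 43 of them positive, where 50.2% of all genes were. All of these comparisons cross slides.

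The other 13 members did not pass the filter in all 20 samples. With the filter met in only 1 condition, 11 of them had values among 18744 genes. At 18/1 5 hr 4 of the 11 were called, 1 higher and 3 lower, where 36.8% of those genes were called (13.5% higher, 23.3% lower). The complex I assembly factors split. Ndufaf4 read 12.30, 12.08, 12.01 and 11.89 at 18/1 5 hr against 11.05, 10.89, 11.42 and 11.24 in unstimulated neurons, and Ndufaf3 read 11.13, 11.01, 10.93 and 11.05 against 11.94, 11.86, 12.05 and 12.05. Neither pair of groups overlapped and neither gene was saturated, at 0.92 ± 0.27 (adjusted p = 0.0112) for Ndufaf4 and -0.94 ± 0.26 (adjusted p = 0.00928) for Ndufaf3. Cox4nb was lower as well (-0.77 ± 0.20, adjusted p = 0.0066). The remaining lower call, Cox7b2, carries no size, because it was well above background in all 4 unstimulated samples but in 1 of the 4 samples of 18/1 5 hr, and a gene that passes the filter through the group where it is high had to differ.

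Ndufa8, an accessory subunit of complex I, showed how far the arrays of a condition could part. It read 13.25 and 13.61 on array 5 and 16.56 and 15.87 on array 6, both 18/1 5 hr, against 13.44 to 13.62 in unstimulated neurons (1.28 ± 0.55, adjusted p = 0.0736). Of the 4 samples of 18/1 5 hr 2 were saturated. Across slides Ndufa8 was called in 90/5 5 hr against 18/1 5 hr (-1.50 ± 0.55, adjusted p = 0.0373), with the groups overlapping. It was also called for the difference of the pattern effect between times (-2.50 ± 0.78, adjusted p = 0.016). The isoforms known from muscle gave no call against unstimulated neurons, with Cox6a2 at -0.57 ± 0.34 (adjusted p = 0.193) and Cox7a1 at -0.80 ± 0.38 (adjusted p = 0.107) at 18/1 5 hr. Across slides, Cox7a1 was called in 90/5 5 hr against 18/1 5 hr (1.32 ± 0.38, adjusted p = 0.0107) and in 18/1 5 hr against 18/1 2 hr (-1.08 ± 0.38, adjusted p = 0.0325), and Cox6a2 in the latter (-0.87 ± 0.34, adjusted p = 0.0499). With this filter 38.2% and 36.3% of all genes were called in those comparisons. Cox4i2, known as the lung isoform of subunit 4, was at 1.00 ± 0.61 (adjusted p = 0.203). Ndufb3 of complex I was at 0.17 ± 0.40 and Uqcrb of complex III at -0.65 ± 0.39. Cox8b, the muscle isoform of subunit 8, was well above background in 2 of 4 samples of 18/1 5 hr and in 0 samples of the other conditions, and Cox8c in 1 and 0. No fold is given for them.

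Genes that work beside these subunits were read from lists, whose counts at 18/1 5 hr stand beside 44.4% of all genes called there (15% higher, 29.5% lower) and are not results about the lists. The subunits encoded in mitochondrial DNA (13 on the array, 8 tested) gave 0 calls at 18/1 2 hr, 18/1 5 hr and 90/5 5 hr and 1 at 90/5 2 hr, ATP8, a subunit of ATP synthase (-1.17 ± 0.35, adjusted p = 0.0471). At 90/5 2 hr 6.97% of all genes were called. ATP8 was at -1.26 ± 0.35 at 90/5 5 hr (adjusted p = 0.519), where 0.0676% of all genes were called. The median of the 8 tested genes was -0.31 at 18/1 5 hr. Of these 8 tested genes 6 had saturated samples, which limits the differences that could be seen in them. For the subunits that were not tested, mean levels are a description only. At 18/1 5 hr and in unstimulated neurons these were 14.616 and 13.749 for ND4L and 13.868 and 12.918 for ND5. In the same order ND1 read 13.775 and 13.474, and ND6 read 9.1193 and 7.9993. ATP6 went the other way, at 13.81 and 14.559. ND4L and ND5 had saturated samples. Cytochrome c (Cycs) was higher at 18/1 5 hr, at 0.86 ± 0.30 (adjusted p = 0.0263), on a probe with saturated samples. A brighter Cycs probe that did not pass the filter read 15.48 there and 15.01 in unstimulated neurons on average. Cyc1, the cytochrome c1 of complex III, was lower, at -0.87 ± 0.27 (adjusted p = 0.014), also with saturation. Of 17 tested assembly factors 3 were called at 18/1 5 hr, all lower: Surf1 and Cox19, which act on complex IV, at -1.49 ± 0.36 and -1.05 ± 0.29, and Acad9, which acts on complex I, at -1.12 ± 0.26. Some factors were not tested, and their mean levels are a description only. At 18/1 5 hr and in unstimulated neurons these were 13.18 and 10.43 for Sdhaf2, 9.95 and 7.24 for Cox17, and 11.15 and 11.30 for Cox18. A brighter Bcs1l probe read 13.76 and 11.36, while the tested one was at -0.75. Of 5 regulators of mitochondrial genes, Nrf1 alone was called. It encodes the factor whose motif was searched above, and it was higher at 18/1 5 hr (1.09 ± 0.28, adjusted p = 0.00366) and at 90/5 2 hr (1.00 ± 0.28, adjusted p = 0.032), both on slide 2. Of 12 tested genes of the citric acid cycle 7 passed in the same comparison, 2 up and 5 down, with Ogdh at 1.68 ± 0.39 on a probe with saturated samples and Dlst, another part of the same enzyme complex, at -2.43 ± 0.34. In glycolysis 4 of 16 were called, all lower, of which Pfkl was at -1.53 ± 0.38. All tested glycolysis genes but Pfkl and Pfkp had saturated samples, which limits the rises that could be seen in them. Pfkp was at 0.15 ± 0.32 and was not called. For all of these lists 0 genes were called at 18/1 2 hr and at 90/5 5 hr.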

How the data were processed

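Expression was measured in 20 samples on 10 two-colour Agilent arrays. The authors deposited, per spot and colour, the mean intensity, the local background intensity and the scanner software's processed intensity on a linear scale, together with other marks (saturated, non-uniform, well above background) set by that software, Agilent Feature Extraction 10.7.1.1 for slide 1 and 10.7.3.1 for slides 2 and 3. For each array 35 further columns per colour were not used. The later of the deposited annotations was used. It gives 143 member spots, against 127 by the earlier. The members and lists were chosen with earlier results of these data known.

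The limma package (version 3.58.1) was run under R 4.3.3. Background was corrected by normexp (offset 50), followed by loess within and Aquantile between arrays. Spots had to be at least 2 times their background and uniform in all 20 samples, probes were averaged over their spots, and the probe with the highest mean stood for a gene. Probes were not compared in level. The fit held a mean per condition, a colour term and the array as random block (correlation 0.529), with Benjamini-Hochberg adjustment per comparison and a threshold of 0.05. The median spot was 2.27 to 10.45 times its background, and the precision is set by 2 arrays per condition. The replicate numbers of the labels could be tied to array and colour for unstimulated, 18/1 2 hr and 90/5 5 hr. Deviations of same-numbered samples correlated at 0.173 to 0.519 between unstimulated and 18/1 2 hr, so there the numbers were taken to pair the samples, and not elsewhere. The numbers also follow the colours. The main fit held no term for the numbers, and a replicate block was run only as an alternative. Genes were named by role (core subunits, isoforms, all of complex II) and, per comparison, as the 3 called members that rose most and the 3 that fell most among those whose samples did not overlap between the conditions, and further genes in the text were named after their values were seen. One gene that this rule names and one probe sequence are not reported here. The alternatives changed the background correction, scaling, spot filter, probes, terms of the model, test, probe composition and samples. The fit was tested on simulated data. Figures were drawn in Python 3.11.15 with matplotlib 3.10.9.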

Additional observations from a re-analysis of the deposited data

Results flagged for a closer look

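Of 165 groups of 4 samples examined for a sample far from the others, 4 had one, where chance gives about 1 in 20. Ndufa4l2 read 10.07 in 18/1 2 hr replicate 3, with the others at 10.89 to 10.98. Uqcrc1 read 14.34 in 18/1 2 hr replicate 1, with the others at 14.88 to 14.98. In 90/5 5 hr replicate 3, Sdhb read 15.79 against 15.56 to 15.57 and Uqcrc2 read 14.89 against 15.18 to 15.23, opposite ways in the same sample.

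For 12 of the 32 named genes tested, the effect of the pattern (90/5 minus 18/1) differed between 5 hr and 2 hr in the limma interaction, whose arms lie on different slides. Of all genes 44.8% were called in that test, and some of these genes were named for their large changes in the comparisons that make it up, so the count is a description. Ndufa11 had the widest difference, 2.93 ± 0.50 (SE, adjusted p = 9.29e-05), from 1.82 at 5 hr and -1.11 at 2 hr. Atp5s followed at 2.15 (adjusted p = 0.00786), Cox4i1 at 1.94 (0.000389), Cox6b2 at 1.60 (0.00926) and Ndufa9 at 1.12 (0.00954). Among the negative differences were those for Sdhc on its first probe, -2.51 (5.81e-06), Ndufaf1, -1.96 (0.000273), Atp5sl, -1.77 (0.000382), Ndufc1, -1.51 (0.00921), Ndufs4, -1.39 (0.00578) and Sdhb, -0.91 (0.0322). On its second probe Sdhc was at 3.84, so its direction depended on the probe. Sdhb lost its call in 15 of 42 alternatives and turned to 1.21 under median centring.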

How the results depend on the processing

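With each sample only centred on its median, 46 members were called at 18/1 5 hr, 59 in 90/5 5 hr against 18/1 5 hr, 56 in 18/1 5 hr against 18/1 2 hr, 10 in 90/5 5 hr against 90/5 2 hr, 62 in 90/5 2 hr against 18/1 5 hr, 46 in the interaction and 21 named members in it. The medians were then 0.22 at 18/1 2 hr, -1.07 at 18/1 5 hr, 0.28 at 90/5 5 hr, 1.30 for 90/5 5 hr against 18/1 5 hr, -1.39 for 18/1 over time (5 hr against 2 hr), 0.13 for 90/5 over time and 1.22 for 90/5 2 hr against 18/1 5 hr. Values with a call here or before that turned sign there were Ndufv1 -1.48, Ndufa4 -0.93, Sdhb -0.94, Cox5a -1.92, Cox7a2l -1.46, Atp5g1 -1.93 and Ndufc1 -0.11 at 18/1 5 hr, Sdhb -1.16, Ndufs4 -0.10 and Ndufc1 -0.41 against 18/1 2 hr, Ndufs4 0.24 in 90/5 5 hr against 18/1 5 hr and Sdhb 1.21 in the interaction. Processed scanner signals gave 11 calls at 18/1 5 hr, 10 against 18/1 2 hr and 2 in 90/5 5 hr against 90/5 2 hr, and turned Cox4i1 (-0.0101, 90/5 5 hr against 18/1 5 hr) and Atp5g2 (1.02, 18/1 5 hr).

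Without saturated probes there were 11 calls at 18/1 5 hr, 0 at 90/5 2 hr and against 18/1 2 hr, 11 in 90/5 5 hr against 18/1 5 hr, 2 in 90/5 2 hr against 18/1 5 hr, and 11 in the interaction (6 named), on 16 members. The medians were 0.29 at 18/1 2 hr, -0.99 at 18/1 5 hr, -0.33 at 90/5 2 hr, -0.57 for 90/5 2 hr against 18/1 2 hr, 1.16 for 90/5 5 hr against 18/1 5 hr, -1.34 for 18/1 over time, 0.50 for 90/5 over time and 0.55 for 90/5 2 hr against 18/1 5 hr. Sdhc, read from its second probe, turned to -2.38 at 18/1 5 hr, -1.10 at 90/5 2 hr, -1.25 for 90/5 2 hr against 18/1 2 hr, 2.60 for 90/5 5 hr against 18/1 5 hr, -2.53 for 18/1 over time, 1.32 for 90/5 over time and 3.84 in the interaction. Here fewer members were left. For all other settings named here the cause was not tested.

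With no filter the counts were 11, 12, 11 and 2 (18/1 5 hr, 90/5 5 hr against it, 18/1 over time, 90/5 over time). With every probe they were 29 for 18/1 over time, 7 for 90/5 over time, 2 for 90/5 2 hr against 18/1 2 hr and 2 against 18/1 5 hr. Without the array block they were 12 at 90/5 2 hr, 8 against 18/1 2 hr, 10 for 90/5 over time and 16 against 18/1 5 hr. Counts given in this section without the share of all genes called in the same fit show the dependence on processing only. They cannot tell whether the members differed from the whole array. Array means gave 1 for 90/5 over time. Fits of only 2 conditions gave 11 for 90/5 5 hr against 18/1 5 hr and 1 for 90/5 over time. The methods' t-test gave 7 at 90/5 2 hr, 8 against 18/1 2 hr, 7 for 90/5 over time and 6 against 18/1 5 hr, and with Benjamini-Hochberg 0, 0 and 0 for the first 3, 9 at 18/1 5 hr, 9 in 90/5 5 hr against it and 10 for 18/1 over time. Removing the G and C trend left 11 in the interaction. The replicate block left 0 members called at 18/1 2 hr and gave 1 at 90/5 5 hr, where the numbers did not pair the samples (lowest correlation -0.543, and 8 of 12 samples best with their own number).

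Leaving out 1 sample gave 11 to 21 calls at 18/1 5 hr (fewest without 90/5 5 hr replicate 4, which shares only the spread), 1 to 2 at 90/5 2 hr and for 90/5 2 hr against 18/1 2 hr, 12 to 21 for 90/5 5 hr against 18/1 5 hr, 12 to 22 for 18/1 over time, 2 to 5 for 90/5 over time (fewest in each without that same replicate), 0 to 3 for 90/5 2 hr against 18/1 5 hr (most without array 6 Cy3) and 15 to 22 in the interaction (11 to 13 named). Leaving out 1 array gave 6 (array 2) to 24 (array 6) at 18/1 5 hr and 1 to 8 (array 7) at 90/5 2 hr. It gave 9 (array 10) to 24 (array 6) for 90/5 5 hr against 18/1 5 hr, 5 (array 3) to 24 (array 6) for 18/1 over time, 1 (array 10) to 11 (array 7) for 90/5 over time, 0 (array 4) to 10 (array 7) for 90/5 2 hr against 18/1 2 hr, 0 to 13 (array 6) for 90/5 2 hr against 18/1 5 hr and 11 (array 10) to 27 (array 7) in the interaction (9 to 17 named). At 18/1 2 hr 0 members were called under every alternative. Among the named members 7466 values kept their side of the threshold, 290 lost and 38 gained a call, and 21 turned sign with a call before or after. Of the 7466, 199 changed sign without a call in either fit, 22 of them under median centring.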
